A study of Mus musculus with 6 samples.

Results

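The genes described here are 10 secreted signals made by muscle cells: the chemokines Ccl2, Ccl5, Ccl7, Cxcl1, Cxcl5, Cxcl10, Cxcl12 and Cx3cl1, and the cytokines Il6 and Lif. They were named as a list and looked up by NCBI gene number among the 17558 genes of the expression table, and all 10 were found. Every one of them passed the filter on low counts that left 12643 genes for testing. RNA was sequenced from C2C12, an immortalised mouse myoblast line that fuses into myotubes when serum is lowered. All cells had spent 48 h in differentiation medium with horse serum and insulin-transferrin-selenium. The 3 groups carried a stable short hairpin RNA each: a non-targeting scrambled hairpin (shScr), a hairpin against Pkm1 (shPkm1) or a hairpin against Pkm2 (shPkm2), with 2 libraries per group. Pkm1 and Pkm2 are splice forms of the pyruvate kinase gene Pkm, and the study asked how each bears on the differentiation of these myoblasts. The model is a single cell line without immune, vascular or nerve cells, and the labels do not say whether the 2 libraries of a group came from separate cultures, so the p-values below measure the spread between these libraries, which may be technical.

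Chemokines are small secreted proteins that bind receptors on leukocytes and other motile cells and direct them along a gradient. Their names follow the spacing of the first cysteines (CC, CXC or CX3C). Damaged or differentiating muscle fibres and their precursors secrete several of them, and myoblasts themselves carry some of the receptors. Il6 and Lif belong to the interleukin 6 family, whose receptors share the signalling chain gp130 (Il6st) and act through Jak kinases and Stat factors.

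The libraries held 18216896 to 19796036 estimated counts each. The labels were first checked on Pkm. The Pkm1 transcript stood at 981.5 ± 32.2 CPM (counts scaled to library size, SD, n = 2) with the scrambled hairpin, at 303.9 ± 11.0 CPM in shPkm1 and at 321.0 ± 12.3 CPM in shPkm2. The Pkm2 transcript stood at 2222 ± 350.2, 1757 ± 163.1 and 3364 ± 64.7 CPM in the same order, so it was not lower in the libraries labelled shPkm2; these are called the shPkm2-labelled libraries throughout, and every direction given for them rests on that label. The 10 skeletal muscle markers summed to 43479 and 30414 CPM in the shScr libraries, 11976 and 13732 in shPkm1, and 1449 and 1405 in the shPkm2-labelled libraries. All 10 were called lower in each hairpin group than in shScr, and lower again in the shPkm2-labelled libraries than in shPkm1. Over all tested genes, 31.4% were called lower in shPkm1 and 34.2% in the shPkm2-labelled libraries against shScr, and 27.3% in the direct comparison. The 2 shScr libraries also differed more from each other than the pairs of the other groups, with a chi-square per degree of freedom of 32.34 against 6.16 and 6.93. Of the 11 macrophage and lymphocyte markers listed, 7 were in the table and the others were not analysed here. Those 7 summed to 6.15 and 8.25 CPM in shScr, 14.9 and 14.2 in shPkm1, and 13.8 and 15.8 in the shPkm2-labelled libraries. Most of each sum was Cd14, and Tyrobp was at 0 in all 6 libraries. Against shScr, Cd14 was called higher and Itgam lower in both hairpin groups. The 6 endothelial markers summed to 4.88 and 2.99 CPM in shScr, 2.02 and 1.57 in shPkm1, and 0.518 and 0.811 in the shPkm2-labelled libraries.

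Stretches of the promoters are shown because several of these genes are textbook targets of NF-kappa B and of interferon-activated factors. The RefSeq promoter table (GRCm38.p6, 250 bases before to 50 after each start) held 6 of the 10 genes: Cxcl1, Cxcl10, Cxcl12, Cx3cl1, Il6 and Lif. Ccl2, Ccl5, Ccl7 and Cxcl5 are named only. Capitals mark matches on either strand to the NF-kappa B consensus, and, first in the Cxcl10 line, to the interferon-stimulated response element; the stretches are written 5′ to 3′ on the gene's strand.
Cxcl10, chr5:92348973-92349112, minus strand: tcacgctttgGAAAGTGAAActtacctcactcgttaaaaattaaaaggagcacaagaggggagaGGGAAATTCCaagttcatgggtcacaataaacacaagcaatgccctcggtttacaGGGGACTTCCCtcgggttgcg
Cxcl1, chr5:90891164-90891194, plus strand: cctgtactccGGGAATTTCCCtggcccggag
Il6, chr5:30013060-30013089, plus strand: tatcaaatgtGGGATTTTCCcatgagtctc
Lif, chr11:4257380-4257409, plus strand: atcaagtacaGGGACGCCCCctccccacac

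The Cxcl10 window held the interferon-type element 213 bases before the start and NF-kappa B matches at 159, 104 and 103 bases, the last 2 overlapping. The Cxcl1 matches began 71 and 70 bases before the start and overlap, the Il6 match began at 44 and the Lif match at 178. Of all 32851 promoter windows in the table, 8.46% held the NF-kappa B consensus and 3.44% the interferon-type element. The Cxcl12 and Cx3cl1 windows held neither, which says only that these letters are not in those windows. The AP-1 site TGANTCA was present in the windows of Cxcl10, Il6 and Lif, beside 7.81% of all windows. The E-box CANNTG was present in all 6 but Cxcl12, beside 72.3% of all windows. These matches are a description and bear on no factor's binding.

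Against shScr, the shPkm1 libraries held more Cxcl12, Cx3cl1, Il6, Cxcl5 and Cxcl1 mRNA and less Cxcl10. By edgeR's quasi-likelihood test, with p-values adjusted across all 12643 genes by the Benjamini-Hochberg method, 5 of the 10 genes were higher and 1 was lower. The shPkm2-labelled libraries held more Cxcl5, Cxcl1, Ccl7 and Cx3cl1 and less Cxcl10, Lif and Ccl5, which is 4 genes higher and 3 lower. Set directly against shPkm1, the shPkm2-labelled libraries were higher in 3 genes (Cxcl1, Ccl2, Ccl7) and lower in 6 (Cxcl12, Cx3cl1, Lif, Il6, Ccl5, Cxcl10). In the same 3 comparisons 63.1%, 68.0% and 53.0% of all tested genes were called (31.8% higher and 31.4% lower, 33.9% and 34.2%, and 25.7% and 27.3%), so a count of 6, 7 or 9 genes in 10 is not by itself a result about this list. The median log2 fold change of the 10 genes was 0.48, 0.20 and -0.96, beside 0.00, 0.01 and 0.00 over all tested genes. The first 2 comparisons share the shScr libraries and are given side by side below.

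Counting higher genes against shScr in shPkm1 gave 3 with DESeq2 and with shPkm1 library 1 left out, since Cxcl1 and Cxcl5 then missed the threshold, and 7 with limma on TPM, which added Ccl5 and Lif. Counting lower genes gave 2 without shScr library 1, Ccl2 being the gene added. Among all called genes 50.3%, 49.8% and 48.4% were higher in the 3 comparisons; scaling by library totals alone moved this to 65.8%, 69.3% and 61.3% and the median of all genes to 0.19, 0.33 and 0.14, and limma on log2(TPM + 1) gave 78.1%, 75.7% and 53.8%.

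**Figure D1:**
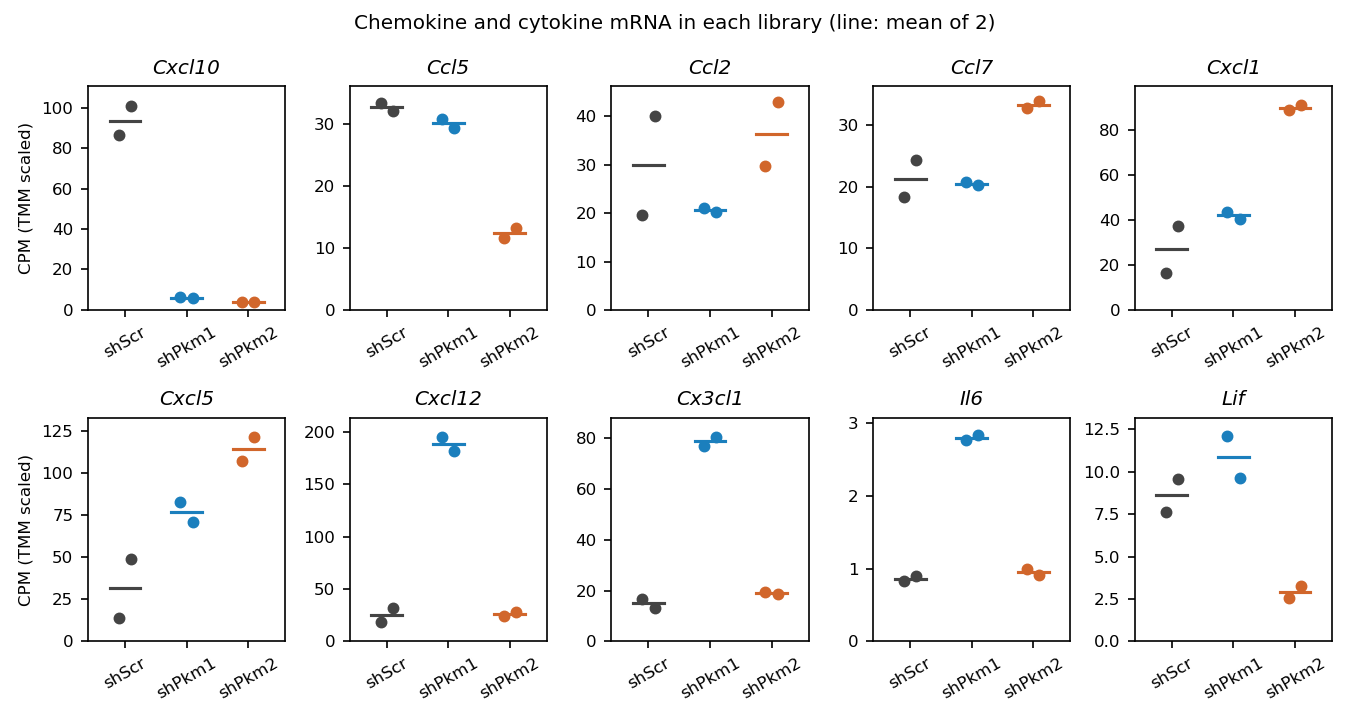
Level of each of the 10 genes in the 6 libraries, as CPM with TMM-scaled library sizes on a linear axis that starts at 0; points are libraries and the line is the mean of 2. Cxcl10 stands near the bottom in all 4 hairpin libraries, Cxcl12, Cx3cl1 and Il6 stand out in shPkm1, and the 2 shScr points lie far apart for Cxcl5, Cxcl1 and Ccl2.

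Cxcl10 attracts activated T cells through Cxcr3 and is a standard readout of interferon signalling. It stood at 86.3 and 100.6 CPM in shScr, at 6.18 and 5.81 in shPkm1, and at 3.95 and 3.72 in the shPkm2-labelled libraries. The groups did not overlap, and both hairpin groups lay far below the controls. In shPkm1 it was 15.6-fold lower (log2 fold change -3.96, SE 0.129, adjusted p = 6.47e-11). It was -4.60 (SE 0.135, adjusted p = 1.16e-11), 24.3-fold lower, in the shPkm2-labelled libraries, and -3.96 for these on the log2(TPM + 1) scale. The difference between the hairpin groups was smaller, -0.64 (SE 0.160, adjusted p = 0.00424). In these bulk samples, fewer cells making a transcript and less of it per cell cannot be told apart, here and for every gene below.

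Cxcl10 lies in a chemokine cluster on chromosome 5 (GRCm38.p6, 92346638 to 92348889), and its neighbour Cxcl9, another interferon-induced Cxcr3 ligand (92321331 to 92328079), was lower as well. Cxcl9 stood at 18.1 and 16.9 CPM in shScr, 2.40 and 2.43 in shPkm1, and 0.518 and 0.525 in the shPkm2-labelled libraries. The log2 fold changes were -2.86 (adjusted p = 2.68e-08) and -5.05 (adjusted p = 4.09e-10).

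Ccl5, a chemokine that recruits T cells and monocytes, did not move with Cxcl10 in shPkm1. It stood at 33.4 and 32.1 CPM in shScr, at 30.9 and 29.4 in shPkm1, and at 11.7 and 13.2 in the shPkm2-labelled libraries. Only the last group lay well apart. Its log2 fold change in shPkm1 was -0.12 (95% interval -0.35 to 0.11, adjusted p = 0.349), and limma on TPM gave the opposite sign, 0.26 with adjusted p = 0.0457. In the shPkm2-labelled libraries it was -1.40 (SE 0.114, adjusted p = 1.80e-07), 2.63-fold lower than in shScr, and -1.28 (adjusted p = 7.43e-07) against shPkm1.

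Ccl2 and Ccl7 are monocyte chemoattractants that act through Ccr2. Their genes lie side by side on chromosome 11 (82035577 to 82037452 and 82045712 to 82047525), with their lowest coordinates 10135 bases apart. Ccl2 stood at 19.7 and 40.0 CPM in shScr, 21.1 and 20.2 in shPkm1, and 29.7 and 42.9 in the shPkm2-labelled libraries. The wide shScr pair spans both shPkm1 libraries and the lower of the shPkm2-labelled libraries. Neither comparison with shScr passed the test: -0.54 (95% interval -1.08 to 0.00, adjusted p = 0.0758) in shPkm1 and 0.28 (-0.24 to 0.80, adjusted p = 0.322) in the shPkm2-labelled libraries. Both depend on which control is kept. Without shScr library 1 they were -0.95 (adjusted p = 1.33e-08) and -0.14 (adjusted p = 0.352), and without shScr library 2 they were 0.07 (adjusted p = 0.713) and 0.88 (adjusted p = 5.02e-07). A replicate block in the edgeR fit gave -0.47 for the first (adjusted p = 0.0376). With limma on log2(TPM + 1) the second was 0.79 (adjusted p = 0.0239). Without library 2 of the shPkm2-labelled ones the second was -0.01 (adjusted p = 0.978). Directly, the shPkm2-labelled libraries were 1.76-fold above shPkm1 (0.81, adjusted p = 0.0131). That call was lost with DESeq2 (adjusted p = 0.131) and without shPkm1 library 1 (0.0867), shPkm1 library 2 (0.0997) or library 2 of the shPkm2-labelled ones (0.149).

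Ccl7 varied less within groups. It stood at 18.4 and 24.3 CPM in shScr, 20.8 and 20.3 in shPkm1, and 32.8 and 33.9 in the shPkm2-labelled libraries, which lay above all others. The log2 fold change in the latter was 0.64 (SE 0.129, adjusted p = 0.000642) against shScr and 0.70 (SE 0.128, adjusted p = 0.000460) against shPkm1. In shPkm1 against shScr it was -0.06 (95% interval -0.35 to 0.23, adjusted p = 0.703), with the sign turning to 0.16 without shScr library 2, 0.13 with library totals and 0.34 with limma on TPM.

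The same stretch of chromosome 11 holds Ccl11 and Ccl8. Both were lower in shPkm1, and Ccl8 was lower in the shPkm2-labelled libraries as well. Ccl8 counts were 133 and 391 in shScr, 15 and 6 in shPkm1, and 42 and 46 in the shPkm2-labelled libraries. Its log2 fold changes were -4.80 (adjusted p = 2.41e-06) and -2.88 (adjusted p = 2.03e-05); the first was -3.93 without shScr library 2 and -5.62 without shPkm1 library 1, and the second was -2.01 without shScr library 2 and -2.14 and -2.24 with limma on log2(TPM + 1) and log2(TPM + 0.1). Ccl11, an eosinophil attractant, had 30 and 31, 4 and 5, and 21 and 18 counts, with log2 fold changes of -2.93 (adjusted p = 4.83e-05) and -0.98 (adjusted p = 0.0163). The second call was lost with DESeq2 (adjusted p = 0.142), library totals (-0.65, adjusted p = 0.0899), limma on log2(TPM + 0.1) (-0.51, adjusted p = 0.0773) and without either of the shPkm2-labelled libraries (0.0686 and 0.122). So within 1 cluster the shPkm2-labelled libraries held more Ccl7 and less Ccl8 than shScr.

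**Figure D2:**
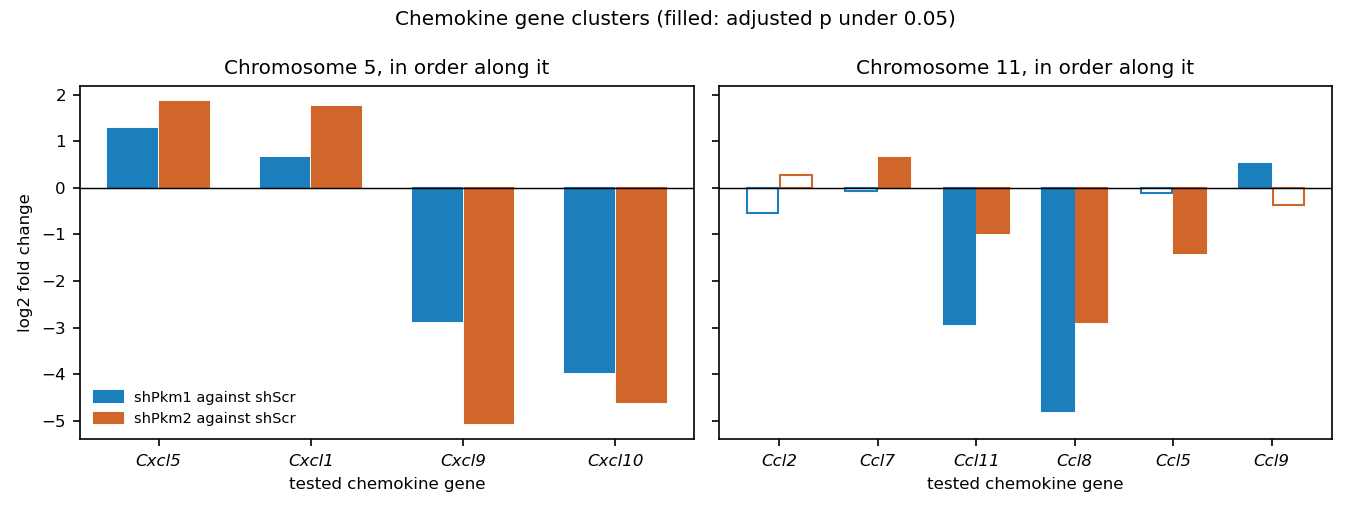
Log2 fold change of the tested chemokine genes near these genes on chromosomes 5 and 11, in their order along the chromosome, for shPkm1 against shScr and for the shPkm2-labelled libraries against shScr; filled bars passed the test, and genes with a group at 3 counts or fewer are left out. Cxcl5 and Cxcl1 lie above 0 and Cxcl9 and Cxcl10 below it in both comparisons, while the chromosome 11 genes show both signs.

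Cxcl1 and Cxcl5 are neutrophil attractants that bind Cxcr2, and their genes lie near each other on chromosome 5 (90891245 to 90893121 and 90759298 to 90761625). Cxcl1 stood at 16.5 and 37.5 CPM in shScr, 43.7 and 40.6 in shPkm1, and 89.0 and 91.2 in the shPkm2-labelled libraries. The groups did not overlap, and the last lay highest. The log2 fold change in the shPkm2-labelled libraries was 1.73 (SE 0.238, adjusted p = 2.56e-05), 3.32-fold above shScr, and 1.10 (SE 0.230, adjusted p = 0.00128) against shPkm1. Without shScr library 2 the first of these was 2.45.

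The smaller Cxcl1 difference in shPkm1, 0.63 (SE 0.241, adjusted p = 0.0348), rested on single libraries. It was 0.17 (adjusted p = 0.211) without shScr library 1 and 1.35 (adjusted p = 1.81e-13) without shScr library 2. It missed the threshold with DESeq2 (adjusted p = 0.232) and without shPkm1 library 1 (0.167) or shPkm1 library 2 (0.0987).

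Cxcl5 stood at 14.1 and 49.1 CPM in shScr, 82.7 and 70.9 in shPkm1, and 107.0 and 121.2 in the shPkm2-labelled libraries. All 4 hairpin libraries lay above both controls. On the log2 scale shPkm1 exceeded shScr by 1.27 (95% interval 0.53 to 2.00, adjusted p = 0.00548), and the shPkm2-labelled libraries exceeded it by 1.84 (1.10 to 2.58, adjusted p = 0.000322). The size depended on the control: without shScr library 1 the values were 0.64 and 1.22, without shScr library 2 they were 2.44 and 3.01, and limma on log2(TPM + 1) gave 1.87 and 2.50. The shPkm1 call was lost with DESeq2 (adjusted p = 0.0878) and without shPkm1 library 1 (adjusted p = 0.0620). The shPkm2-labelled libraries did not pass against shPkm1 (0.57, 95% interval -0.12 to 1.27, adjusted p = 0.153), but did when only these 2 groups entered the fit (adjusted p = 4.21e-08) or when either control was left out (1.19e-07 and 1.14e-07).

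The spread of these genes between the 2 controls is itself a measurement. On the log2 CPM scale shScr library 2 exceeded library 1 by 1.79 for Cxcl5, 1.18 for Cxcl1, 1.02 for Ccl2 and 0.80 for Cxcl12. A difference over 1 was seen for 3 of the 10 genes, beside 3.09% of all tested genes. The median absolute difference between the controls was 0.38 for the 10 genes and 0.18 over all tested genes. In shPkm1 and in the shPkm2-labelled libraries none of the 10 differed by over 1. The muscle marker sum moved the other way between the same controls, 43479 CPM in library 1 and 30414 in library 2; its part in these differences was not tested.

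Cxcl12 is a homeostatic chemokine that binds Cxcr4 and the scavenger Ackr3 and guides the migration of muscle precursors. Its mRNA stood at 18.5 and 32.2 CPM in shScr, 194.9 and 181.7 in shPkm1, and 24.3 and 27.8 in the shPkm2-labelled libraries, which fell between the 2 controls. The level in shPkm1 was 7.39-fold that in shScr (log2 fold change 2.89, SE 0.185, adjusted p = 3.96e-08). In the shPkm2-labelled libraries it was 0.03 against shScr (95% interval -0.37 to 0.44, adjusted p = 0.887), -0.06 without library 2 of those libraries, -0.31 (adjusted p = 0.0260) without shScr library 1 and 0.50 (adjusted p = 0.00126) without shScr library 2. Directly, the shPkm2-labelled libraries were 7.23-fold below shPkm1 (-2.85, SE 0.183, adjusted p = 3.12e-08). The summed level of the 7 fibroblast markers was also highest in shPkm1, with 4739 and 5103 CPM in shScr, 17380 and 17846 in shPkm1, and 2638 and 2418 in the shPkm2-labelled libraries, most of it Col3a1 and Col1a1. Single markers had both signs. Against shScr, Col1a1 (2.44), Pdgfra (2.30), Col3a1 (1.53) and Dcn (1.00) were higher in shPkm1 and Ly6a was lower (-0.62, adjusted p = 0.000536), a call lost with limma on log2(TPM + 1) and log2(TPM + 0.1) (-0.23, adjusted p = 0.120 in both), while in the shPkm2-labelled libraries Pdgfra was higher (2.46) and the other 4 were lower. Lum had 0 counts in both shScr libraries, and Thy1 had 0 or 1 count in every library. The part of these genes in the Cxcl12 result was not tested.

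Cxcl12 is spliced into forms that share their first 267 coding bases and differ at the end (GENCODE M21, GRCm38, chr6, plus strand). The ends are shown because the coding sequences of the deposited transcripts differ there. Lower case is the end of the shared part, and capitals are the part of each form's own, including its stop codon.
NM_021704.3, chr6:117173580-117173582: ctggagaaagctttaaacaagTAA
NM_013655.4, chr6:117178584-117178598: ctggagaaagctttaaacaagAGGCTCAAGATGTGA
NM_001012477.2, chr6:117176087-117176179: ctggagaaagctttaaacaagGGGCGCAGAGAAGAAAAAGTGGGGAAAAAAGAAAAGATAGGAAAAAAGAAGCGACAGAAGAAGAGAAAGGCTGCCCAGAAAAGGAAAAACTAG

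The coordinates are those of the capitals, and the forms code for 89, 93 and 119 amino acids. All 3 were higher in both shPkm1 libraries than in any other library. The short form NM_021704.3 stood at 8.87 and 17.43 TPM (a scale that corrects for transcript length) in shScr, 114.4 and 107.85 in shPkm1, and 13.76 and 16.1 in the shPkm2-labelled libraries. The form NM_013655.4 stood at 1.82 and 4.22, 39.53 and 33.44, and 5.71 and 5.76 TPM, and the long form NM_001012477.2, whose own tail is rich in codons for basic residues, at 0.37 and 0.38, 5.17 and 3.15, and 0.74 and 0.64 TPM.

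The short form made up 80.2% and 79.1% of Cxcl12 TPM in shScr, 71.9% and 74.7% in shPkm1, and 68.1% and 71.6% in the shPkm2-labelled libraries. The share of NM_013655.4 was 16.5% and 19.2% in shScr, below the 23.2% to 28.3% of the 4 hairpin libraries. These shares rest on the authors' split of shared reads between transcripts, so they carry an error that the 2 libraries of a group do not fully show, and no test was made of them.

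**Figure D3:**
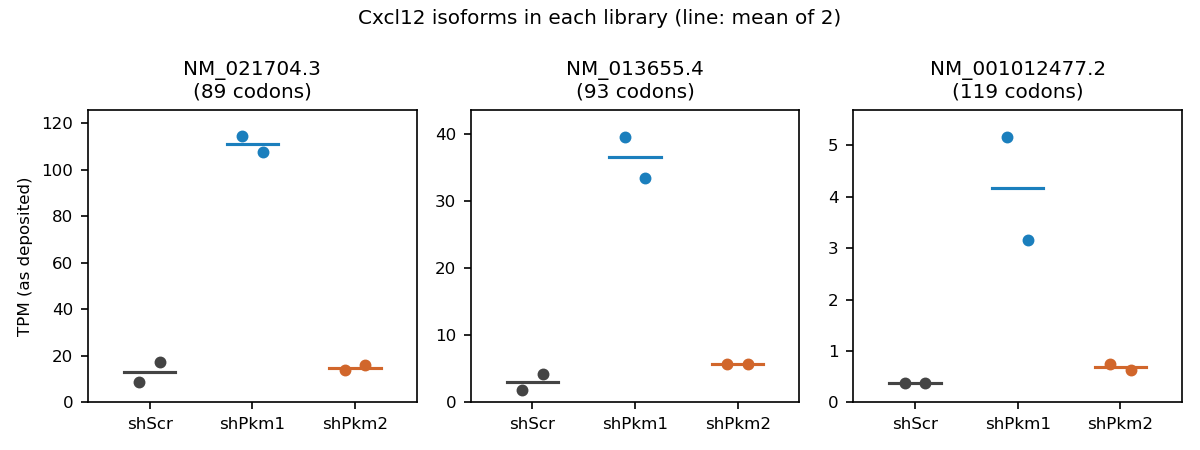
Level of the 3 Cxcl12 transcripts in each library in TPM as deposited, each on its own linear axis from 0, with a line at the mean of 2 libraries. The shPkm1 libraries lie highest for every form, up to 114.4 TPM for NM_021704.3.

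Cx3cl1 (fractalkine) is made as a membrane-bound chemokine that proteases release, and its receptor is Cx3cr1. It stood at 16.8 and 13.1 CPM in shScr, 76.8 and 80.4 in shPkm1, and 19.3 and 18.7 in the shPkm2-labelled libraries. The shPkm1 libraries lay far above all others, and the shPkm2-labelled ones just above the controls. The log2 fold change in shPkm1 was 2.40 (SE 0.124, adjusted p = 5.79e-09), 5.28-fold higher than shScr, and the shPkm2-labelled libraries were 4.14-fold below shPkm1 (-2.05, SE 0.119, adjusted p = 1.27e-08). Their rise over shScr was small, 0.35 (SE 0.129, adjusted p = 0.0278), and missed the threshold with DESeq2 (adjusted p = 0.0523), without shScr library 2 (0.18, adjusted p = 0.254), and without library 1 (0.112) or library 2 (0.0689) of the shPkm2-labelled ones.

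The sheddases that release Cx3cl1 were measured too. Adam10 stood at 32.4 and 34.5 CPM in shScr, 59.0 and 54.7 in shPkm1, and 66.4 and 73.9 in the shPkm2-labelled libraries (against shScr 0.76, adjusted p = 3.47e-05, and 1.07, adjusted p = 1.07e-06). Adam17 stood at 40.7 and 47.5, 48.5 and 46.9, and 66.7 and 64.9 CPM, and was higher in the shPkm2-labelled libraries than in shPkm1 (0.46, adjusted p = 0.00192).

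Il6 is released by contracting and regenerating muscle and acts through Il6ra and gp130. Its mRNA was rare, at 13 and 16 counts in shScr, 52 and 56 in shPkm1, and 21 and 19 in the shPkm2-labelled libraries. In CPM these are 0.824 and 0.904, 2.77 and 2.83, and 0.989 and 0.907. The shPkm1 libraries lay above all others, and the rest were close together. In shPkm1 it was 3.22-fold higher (1.69 on the log2 scale, SE 0.306, adjusted p = 0.000346). In the shPkm2-labelled libraries it was 0.13 (95% interval -0.62 to 0.88, adjusted p = 0.756), a wide interval at this depth, and limma on log2(TPM + 1) gave 0.34 (adjusted p = 0.0409). They were 2.94-fold below shPkm1 (-1.56, SE 0.289, adjusted p = 0.000512). The variant transcript NM_001314054.1 was listed at 0 in shScr and in the shPkm2-labelled libraries, and at 0.31 and 0.55 TPM in shPkm1, from 3.21 and 6.33 estimated counts.

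Lif, a relative of Il6 that signals through Lifr and gp130 and stimulates myoblast proliferation, differed more between the hairpin groups than either did from shScr. It stood at 7.61 and 9.60 CPM in shScr, 12.1 and 9.66 in shPkm1, and 2.59 and 3.24 in the shPkm2-labelled libraries. The last group lay below all others, and the lower shPkm1 library stood beside the higher control. The log2 fold change in the shPkm2-labelled libraries was -1.56 (SE 0.208, adjusted p = 1.84e-05), 2.95-fold below shScr, or -0.73 with limma on log2(TPM + 1). In shPkm1 it was 0.33 (95% interval -0.06 to 0.73, adjusted p = 0.127). This did pass with library totals (0.52, adjusted p = 0.0323), with limma on log2(TPM + 1) (0.54, adjusted p = 0.0128) and without shScr library 2 (0.51, adjusted p = 0.0175). The shPkm2-labelled libraries were 3.72-fold below shPkm1 (-1.90, SE 0.202, adjusted p = 4.14e-06); limma on log2(TPM + 1) gave -1.27 for this difference.

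Lif was split over 5 transcripts in the table. NM_001039537.2 stood at 2.01 and 1.96 TPM in shScr, 0.85 and 1.07 in shPkm1, and 0.0 and 0.12 in the shPkm2-labelled libraries. NM_008501.2 stood at 0.0 and 1.12 TPM in shScr and at 2.5 and 2.37 in shPkm1, with 0.84 and 0.69 in the shPkm2-labelled libraries. The first was thus the main form in both controls and the second the main form in both shPkm1 libraries, but a form listed at 0 in 1 control and at 33.0% of Lif TPM in the other shows how loosely the split is estimated at this depth.

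**Figure D4:**
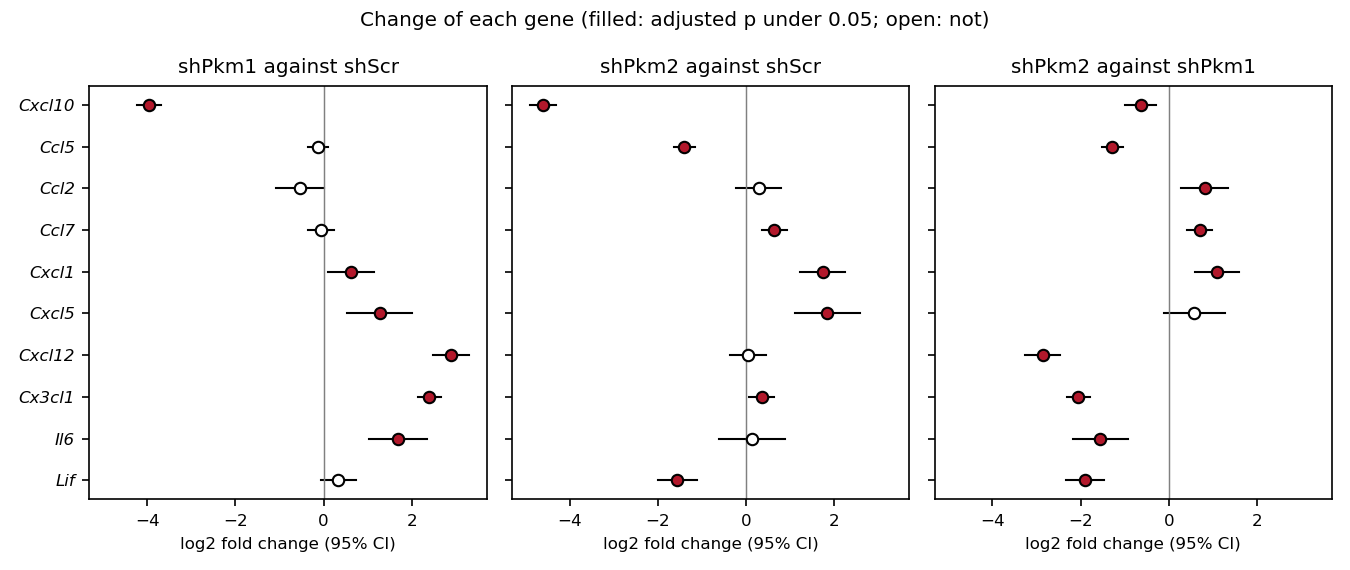
Log2 fold change of each gene with its 95% interval in the 3 comparisons; filled points passed an adjusted p of 0.05 in edgeR's quasi-likelihood test and open points did not. Cxcl10 lies at -3.96 and -4.60 against shScr, Cxcl12 at 2.89 in shPkm1 and 0.03 in the shPkm2-labelled libraries, and the third panel gives the direct comparison of the hairpin groups.

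Per transcript length, the order of the 10 genes differed between the groups. In shScr, Cxcl10 led with 124.8 ± 24.7 TPM (SD, n = 2) and Ccl5 followed with 97.6 ± 7.10. Ccl2, Cxcl1, Ccl7, Cxcl5 and Cxcl12 came next with means of 57.0 to 16.5 TPM, and the library ranges of neighbours in that stretch overlapped. Within each shScr library, though, Ccl2 exceeded Cxcl1, Ccl7 exceeded Cxcl5 and Cxcl5 exceeded Cxcl12. Only Cxcl1 and Ccl7 changed order between the libraries. Cx3cl1 (6.58 TPM), Lif (2.88 TPM) and Il6 (1.11 TPM) were lowest. In shPkm1, Cxcl12 led with 151.8 ± 10.4 TPM, before Ccl5 (117.4 TPM), and the pairs Cxcl5 and Cxcl1 (86.9 and 85.4 TPM) and Ccl7 and Ccl2 (both 50.4 TPM) overlapped. Cx3cl1 had 45.7 TPM there and Cxcl10 10.4 TPM, while Il6 and Lif (4.71 and 4.63 TPM) overlapped at the end. In the shPkm2-labelled libraries, Cxcl1 led with 191.1 ± 4.67 TPM, before Cxcl5 (134.6 TPM) and the overlapping Ccl2 and Ccl7 (92.3 and 85.7 TPM). Ccl5 had 50.7 TPM, Cxcl12 21.4 TPM and Cx3cl1 11.6 TPM in that group, and Cxcl10 (6.99 TPM), Il6 (1.66 TPM) and Lif (1.33 TPM) closed the order. Summed over the 10 genes the libraries held 323.3 and 512.9 TPM in shScr, 639.9 and 575.5 in shPkm1, and 581.3 and 613.1 in the shPkm2-labelled ones.

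Most receptors that leukocytes use for these ligands were near 0 in this line. Of 15 receptors listed, 13 were in the table, the rest were not analysed here, and 6 of the 13 were tested. Each of Ccr1, Ccr3, Ccr4, Cxcr3, Cx3cr1, Ackr1 and Ackr2 had 0 to 3 counts in every library, and a count of 3 is the limit that a count of 0 allows, for counting error only. Cxcr2, the receptor of Cxcl1 and Cxcl5, had 8 to 16 counts and did not pass in any comparison. The receptors that were well measured were those of Cxcl12, Il6 and Lif. In shPkm1, 4 of the 6 tested were higher and Cxcr2 and Il6st did not pass, and in the shPkm2-labelled libraries 3 were higher and 1 lower, beside 63.1% and 68.0% of all tested genes called.

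Cxcr4, which carries the signal of Cxcl12, stood at 9.32 and 14.6 CPM in shScr, 27.7 and 21.0 in shPkm1, and 18.9 and 22.1 in the shPkm2-labelled libraries. Both hairpin groups lay above the controls, with log2 fold changes of 1.02 in shPkm1 (adjusted p = 0.000427, SE 0.190) and 0.77 for the others (adjusted p = 0.00282, SE 0.190), and overlapped each other. The scavenger Ackr3 stood at 19.1 and 18.9, 33.0 and 29.1, and 25.9 and 29.1 CPM, with log2 fold changes of 0.71 (adjusted p = 0.000168) and 0.53 (adjusted p = 0.00124). So the receptors were higher in the shPkm2-labelled libraries also, where Cxcl12 itself did not pass.

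Il6ra stood at 3.36 and 2.99 CPM in shScr, 6.39 and 6.42 in shPkm1, and 9.70 and 8.54 in the shPkm2-labelled libraries, with log2 fold changes of 1.01 (adjusted p = 0.000446) and 1.52 (adjusted p = 7.24e-06). Lifr stood at 44.9 and 70.7, 144.7 and 138.5, and 63.2 and 54.0 CPM, 2.45-fold higher in shPkm1 (1.29, adjusted p = 1.67e-05) and 0.02 (95% interval -0.34 to 0.37, adjusted p = 0.929) in the shPkm2-labelled libraries. That last value depended on single libraries: it was -0.27 (adjusted p = 0.0293) without shScr library 1, 0.39 (adjusted p = 0.00324) without shScr library 2 and -0.10 (adjusted p = 0.710) without library 1 of the shPkm2-labelled libraries. The shared chain Il6st stood at 126.3 and 127.3, 138.5 and 141.9, and 87.7 and 85.6 CPM. In shPkm1 it was not called, but it passed with library totals (0.34, adjusted p = 0.00937) and with limma (0.52 and 0.53, adjusted p = 0.00196 and 0.00193). It was lower in the shPkm2-labelled libraries (-0.55, adjusted p = 0.000150), a call lost with library totals (-0.22, adjusted p = 0.0600) and with limma on log2(TPM + 1) (-0.09, adjusted p = 0.502), and -0.69 (adjusted p = 3.18e-05) below shPkm1. Lif and its receptor chains Lifr and Il6st were thus all lower in the shPkm2-labelled libraries than in shPkm1.

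**Figure D5:**
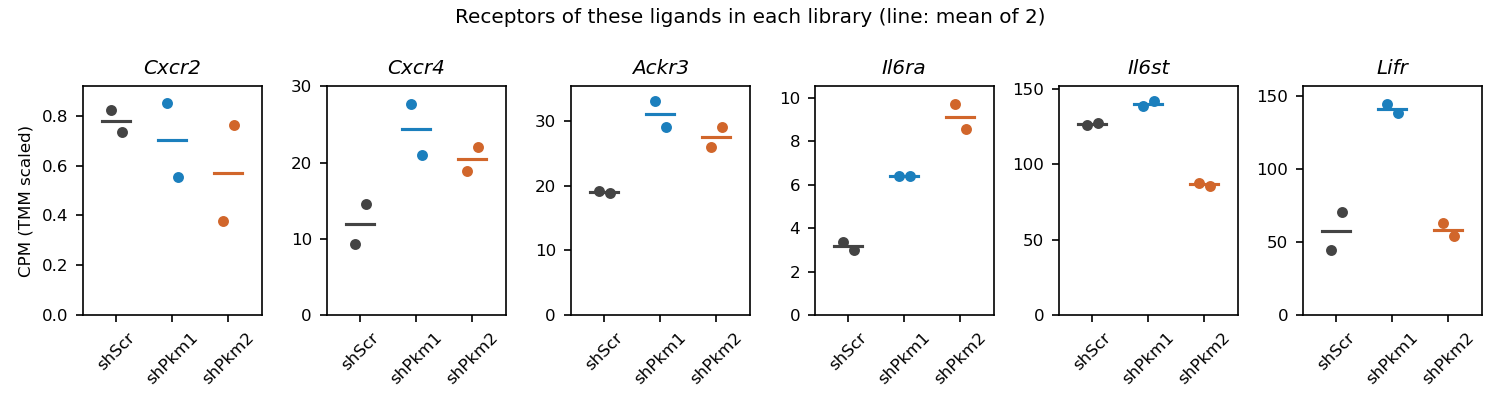
The 6 tested receptors of these ligands in each library, in TMM-scaled CPM on linear axes from 0, with a line at the mean of 2 libraries. Cxcr4, Ackr3 and Il6ra lie above the controls in both hairpin groups, Lifr lies above them in shPkm1, and Il6st lies lowest in the shPkm2-labelled libraries.

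Downstream of gp130, all 17 listed genes were tested, and 7 were higher and 9 lower in shPkm1 (median -0.24), and 5 higher and 10 lower in the shPkm2-labelled libraries (median -0.68), beside 63.1% and 68.0% called over all tested genes. The kinase Jak2 stood at 14.4 and 16.6 CPM in shScr, 50.3 and 47.4 in shPkm1, and 43.5 and 39.0 in the shPkm2-labelled libraries, with log2 fold changes of 1.66 (adjusted p = 8.98e-08) and 1.41 (adjusted p = 2.03e-07). Socs2, a feedback inhibitor, was higher in shPkm1 (0.75, adjusted p = 8.00e-05) and in the shPkm2-labelled libraries (0.59, adjusted p = 0.000432, and 1.20 with limma on log2(TPM + 0.1)). Cish, another, was higher in the shPkm2-labelled libraries (1.48, adjusted p = 0.00340) from 8 and 11 counts in shScr to 31 and 36, and was 0.63 in shPkm1 (adjusted p = 0.199, and 0.0499 and 0.0314 with limma on log2(TPM + 1) and log2(TPM + 0.1)). The Stat factor Stat5a was lower in shPkm1 (-1.29, adjusted p = 5.70e-07) and in the shPkm2-labelled libraries (-0.79, adjusted p = 2.39e-05). The immediate early gene Junb was higher in shPkm1 than in shScr (0.59, adjusted p = 0.000872), and lower in the shPkm2-labelled libraries than in shScr (-1.05, adjusted p = 5.18e-06) and than in shPkm1 (-1.64, adjusted p = 1.43e-07).

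Of 21 NF-kappa B pathway genes, 19 were tested. In shPkm1, 3 were higher and 5 lower, and in the shPkm2-labelled libraries 5 were higher and 9 lower, with medians of -0.11 and -0.21, so that 8 and 14 of the 19 were called beside 63.1% and 68.0% of all tested genes. Vcam1, an adhesion molecule and target of the pathway, stood at 43.8 and 56.7 CPM in shScr, 112.4 and 109.6 in shPkm1, and 155.8 and 165.4 in the shPkm2-labelled libraries (1.14, adjusted p = 3.34e-06, and 1.67, adjusted p = 5.13e-08). The nuclear IkB protein Nfkbiz was 2.04-fold higher in the shPkm2-labelled libraries (1.03, adjusted p = 4.29e-06). The inhibitor Nfkbia was 0.32 higher on the log2 scale in shPkm1 (adjusted p = 0.0165), a call lost without shScr library 1 (0.20, adjusted p = 0.103) or either shPkm1 library (0.0851 and 0.0617), and 0.54 higher in the shPkm2-labelled libraries (adjusted p = 0.000470). The feedback inhibitors Tnfaip3 and Tnip1 were lower in shPkm1 (-1.33, adjusted p = 1.06e-06, and -1.15, adjusted p = 4.93e-06) and in the shPkm2-labelled libraries (-1.06, adjusted p = 4.59e-06, and -1.11, adjusted p = 4.55e-06). The adaptor Traf2 and the inhibitor Nfkbib were lower in the shPkm2-labelled libraries (-1.22, adjusted p = 1.27e-07, and -1.15, adjusted p = 2.51e-06) and in shPkm1 (-0.55, adjusted p = 0.000236, and -0.89, adjusted p = 3.26e-05); the Traf2 call in shPkm1 was lost with limma on log2(TPM + 1) (-0.15, adjusted p = 0.257). The list thus held target and regulator genes of both signs.

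Of 28 other mouse chemokines, 25 were in the table and 9 were tested: 3 were higher and 4 lower in shPkm1, and 1 was higher and 4 lower in the shPkm2-labelled libraries, again beside 63.1% and 68.0% of all tested genes. Cxcl13, a B cell attractant, had 54 and 33 counts in shScr, 14 and 16 in shPkm1, and 3 and 3 in the shPkm2-labelled libraries. The log2 fold change in these was -4.14 (95% interval -5.21 to -3.08, adjusted p = 6.72e-06), but their counts are no higher than the floor, and limma gave -1.75 on log2(TPM + 1) and -3.24 on log2(TPM + 0.1). The transmembrane chemokine Cxcl16 was 2.09-fold higher in shPkm1 (1.06, adjusted p = 0.00523), a call lost without shPkm1 library 2 (0.95, adjusted p = 0.0503). Ccl9, near Ccl5, was 0.51 higher on the log2 scale (adjusted p = 0.0151), a call lost without shScr library 2 (0.27, adjusted p = 0.122) or shPkm1 library 1 (0.47, adjusted p = 0.0879). Outside the rule for naming, and chosen after the values were seen, Cxcl14 had 0 counts in all shScr libraries and in the shPkm2-labelled ones and 25 and 22 counts in shPkm1, at least 6.79-fold above shScr at the floor of 3 counts per library. Ppbp, between Cxcl5 and Cxcl1 on the chromosome and chosen likewise, had 1 and 1 counts in shScr, 7 and 2 in shPkm1, and 21 and 26 in the shPkm2-labelled libraries, at least 6.20-fold above shScr at the same floor. Cxcl14 and Ppbp passed the filter on low counts only through the group where they were high, so their calls, 1 of the 3 higher in shPkm1 and the 1 higher in the shPkm2-labelled libraries, are no test.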

How the data were processed

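Total RNA of 6 C2C12 libraries was sequenced; transcript selection and strandedness are not given in the sources used here. The deposited table held, per RefSeq transcript and library, the authors' estimated counts, TPM and FPKM values, per the file headers; the FPKM values and the 9 columns of the authors' group means were not used. HISAT, StringTie, Bowtie, RSEM, DESeq2 and the build mm10 are named in the submitters' processing notes without roles or versions. Estimated counts and TPM of 57920 transcripts were summed to 17558 genes by NCBI gene number; 17445 had a symbol in the reference tables, and the other 113 held at most 0.148% of a library's counts. Splitting of reads between similar transcripts by the authors can make the counts of genes with several transcripts inexact; the 7 genes of the 10 with a single transcript had whole counts in every library (tolerance 1e-09).

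Summed counts were rounded and tested with edgeR 4.0.16 (R 4.3.3) by the quasi-likelihood test after filterByExpr (minimum count 10, total 15), which left 12643 genes. TMM scaling was used, all 6 libraries were fitted with a term per group, and p-values were adjusted by Benjamini-Hochberg with a threshold of 0.05. CPM use TMM-scaled library sizes, log2 CPM a prior count of 2, and intervals are 95%. Alternatives were DESeq2 1.42.0, limma 3.58.1 on log2(TPM + 1) and log2(TPM + 0.1), DESeq2 size factors, library totals, no filter, a mean of at least 50 counts, a replicate block, a fit of only the 2 groups concerned, and each library left out in turn. The 10 genes and the gene lists were chosen with earlier results of these data known. From each further list up to 2 higher and 2 lower genes per comparison were named, by the largest log2 fold change among called genes averaging 10 counts or more; receptors could all be named. A count of 3 per library is the floor, and floors cover counting error only.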

Additional observations from a re-analysis of the deposited data

Results flagged for a closer look

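Lif lay on opposite sides of the controls in the 2 hairpin groups. Both shPkm1 libraries (12.1 and 9.66 CPM) exceeded both shScr libraries (7.61 and 9.60 CPM), the lower of them by a small margin, while both shPkm2-labelled libraries (2.59 and 3.24 CPM) fell below them. The difference between the hairpin groups was tested directly and was -1.90 on the log2 scale (edgeR's quasi-likelihood test, adjusted p = 4.14e-06), and the rise over shScr in shPkm1 alone did not pass (0.33, adjusted p = 0.127).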

How the results depend on the processing

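Of 30 comparisons of the 10 genes, 18 kept their direction and their side of the threshold under every alternative run. Over 447 single alternatives, 406 left both the same and 12 turned the sign. Some of those 12 also passed the threshold: Ccl5 with limma in shPkm1, and Cxcl12 without shScr replicate 1 in the shPkm2-labelled libraries. With the sign kept, 15 brought a gene past the threshold and 14 took it back. The number of genes higher in shPkm1 than in shScr was 5, was 3 with DESeq2 and 7 with limma on TPM, and ranged from 3 to 6 with a library left out; the number lower was 1, was 2 with the replicate block, and ranged from 1 to 2. Other counts of genes stayed within 1.5 times, the number higher in the shPkm2-labelled libraries being 4 and, with limma on TPM, 6. In shPkm1 against shScr the sign turned for Ccl2 without shScr replicate 2 (0.07), for Ccl5 with library totals (0.08) and limma (0.26 and 0.27 for added values of 1 and 0.1), and for Ccl7 with library totals (0.13), limma (0.34 for both) and without shScr replicate 2 (0.16). In the shPkm2-labelled libraries against shScr it turned for Ccl2 without shScr replicate 1 (-0.14) or their replicate 2 (-0.01), and for Cxcl12 likewise (-0.31 and -0.06). Over the left-out libraries these values ranged from -0.95 to 0.07 (Ccl2) and -0.25 to 0.16 (Ccl7) in shPkm1, and from -0.14 to 0.88 (Ccl2) and -0.31 to 0.50 (Cxcl12) in the shPkm2-labelled ones. The cause was not tested. Limma on log2(TPM + 1) changes the scaling, the unit and the added value together. With it, some fold changes against shScr were over 1.5 times smaller, given here on the log2 scale. In shPkm1 they included Ccl8 (-3.82), Ccl11 (-1.30), Cntf (1.78) and Mmp9 (-2.01). In the other hairpin group they included Cxcl9 (-2.81), Cxcl13 (-1.75), Cish (0.66), Il1b (-0.97), Ctf1 (-1.06), Il15 (-1.03) and Mmp9 (-0.55, adjusted p = 0.207), besides Cxcl10 and Lif as given above. Mif was -0.07 (adjusted p = 0.642) in shPkm1 with the same limma fit. Il6 has too few counts for the filter on a mean of 50. Replicate numbers are shared between groups, but the deviations of same-numbered libraries correlated at only -0.022, 0.039 and 0.107, so the numbers were not taken to pair them; the replicate block added Ccl2 in shPkm1 (-0.47, adjusted p = 0.0376) and changed no other count of these genes by over 1.5 times.

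With 2 libraries per group, where a left-out library leaves 1, that library is assumed to vary like the other groups. Depth limits Il6 (13 to 56 counts) and Cxcr2 (8 to 16 counts), which were low but above the floor. It also limits most leukocyte receptors, whose counts lay at or under the floor.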

Other observations

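Other cytokines of muscle and stromal cells were measured as well. Of 22 listed, 16 were tested. The shares called in either direction were close to those of all tested genes, 63.1% in shPkm1 and 68.0% in the shPkm2-labelled libraries. In shPkm1, 9 were higher and 2 lower (median log2 fold change 0.96), beside 31.8% and 31.4% of all tested genes. In the shPkm2-labelled libraries, 8 were higher and 3 lower (median 0.52), beside 33.9% and 34.2%. Il33, an alarmin, stood at 6.78 and 10.1 CPM in shScr, 29.5 and 25.3 in shPkm1, and 57.5 and 58.4 in the shPkm2-labelled libraries (1.69, adjusted p = 1.12e-06, and 2.77, adjusted p = 4.04e-09, edgeR's quasi-likelihood test). Il1rn, the interleukin 1 receptor antagonist, had 15 and 70 counts in shScr, 29 and 28 in shPkm1, and 373 and 421 in the shPkm2-labelled libraries. Its log2 fold change in the last was 2.90 (adjusted p = 4.58e-06), 2.25 without shScr replicate 1 and 4.30 without shScr replicate 2. Il1b, which Il1rn opposes at the receptor, had 14 and 18, 23 and 26, and 0 and 1 counts. The shPkm2-labelled libraries were at least 6.70-fold below shScr at the floor of 3 counts per library. Il1b passed the filter on low counts only through the groups where it was higher, so its call there (adjusted p = 5.15e-05) is no test. Il15, a cytokine known from muscle fibres, had 27 and 22, 26 and 31, and 3 and 4 counts. Its difference in the shPkm2-labelled libraries (-3.10, adjusted p = 5.91e-05) rests on counts near the floor in that group. Cntf, of the Il6 family, had 4 and 13 counts in shScr and 52 and 56 in shPkm1 (2.46, adjusted p = 0.000178, and 3.43 without shScr replicate 2), and Ctf1 of the same family was 1.88-fold lower there (-0.91, adjusted p = 0.000666) and lower in the shPkm2-labelled libraries too (-1.67, adjusted p = 4.29e-06). Mif was -0.48 in shPkm1 (adjusted p = 0.0156), a call lost without shScr replicate 1 (adjusted p = 0.146) or either shPkm1 replicate (0.152 and 0.0553), and with library totals (0.0917). Il7 was 1.17 higher on the log2 scale in the shPkm2-labelled libraries than in shPkm1 (adjusted p = 0.00256).

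Enzymes that cut chemokines and proteins that degrade their mRNAs (12 listed, 11 tested) gave 6 higher and 2 lower in shPkm1, and 4 of each in the shPkm2-labelled libraries, beside 63.1% and 68.0% of all tested genes. Mmp2, a protease able to cut Cxcl12, stood at 83.3 and 105.9 CPM in shScr, 1066 and 1099 in shPkm1, and 43.4 and 43.6 in the shPkm2-labelled libraries (3.52, adjusted p = 2.17e-10, and -1.12, adjusted p = 3.82e-06). Mmp9 had 109 and 438 counts in shScr and 22 and 27 in shPkm1 (-3.64, adjusted p = 3.35e-05, -4.28 without shScr replicate 1 and -2.44 without shScr replicate 2). In the shPkm2-labelled libraries its difference of -1.35 (adjusted p = 0.00795) was -0.14 (adjusted p = 0.579) without shScr replicate 2, and the call was also lost with DESeq2 (adjusted p = 0.0976) and without replicate 1 of those libraries (0.0501). Zfp36l2, a protein that binds AU-rich mRNAs, was 2.82-fold and 2.64-fold higher (1.49, adjusted p = 4.57e-08, and 1.40, adjusted p = 3.60e-08). Its relative Zfp36 was -0.53 in shPkm1 (adjusted p = 0.000945) and -0.68 in the shPkm2-labelled libraries (adjusted p = 0.000116), calls lost with limma on log2(TPM + 1) (-0.14, adjusted p = 0.345, and -0.21, adjusted p = 0.143), and Zfp36l1 was 3.92-fold lower in the shPkm2-labelled libraries than in shPkm1.

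Among 10716 genes averaging 50 counts or more, the 3 whose centred log2 CPM over the 6 libraries lay closest to Cxcl12 were Hs3st1, Optc and Ptx3 (root mean square differences 0.21, 0.22 and 0.22). Those closest to Cxcl5 were Ankle1, Pi15 and Sclt1 (0.26, 0.30 and 0.31), and those closest to Cxcl1 were Fanca, Gja1 and Bard1 (0.14, 0.15 and 0.16). Within the 10 genes the closest pairs were Ccl2 with Ccl7 (0.28) and Ccl5 with Lif (0.29). These are descriptions over 6 libraries that share their groups.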
